A study of Mus musculus with 6 samples.

Results

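The T cell receptor gene segments of the mouse α and β chains were read in regulatory T cells induced in culture. They were taken as every annotated gene whose name starts with Trav, Traj, Trac, Trbv, Trbj or Trbc, and their FPKM, a level scaled to transcript length and library size, was summed per name. This gave 240 of 47517 gene names: 128 Trav, 60 Traj, 1 Trac, 35 Trbv, 14 Trbj and 2 Trbc. All carry the position that GENCODE release M21 gives them on mm10, the α segments on chromosome 14 and the β segments on chromosome 6. Per the labels, splenic CD4+ T cells of C57BL/6 mice with the Foxp3-DTR/EGFP allele received plate-bound anti-CD3, soluble anti-CD28 and TGF-β for 2 days. They then had either vehicle (DMSO) or 100 nM PGE2 (prostaglandin E2, a lipid mediator) for 6 h, and Foxp3+ cells were sorted on the reporter's fluorescence. Each group has 3 RNA sequencing libraries, and both carry the reporter allele. The age and sex of the mice are not stated, nor whether the 3 libraries of a group come from separate mice or cultures, so p-values measure the spread between these libraries only.

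In a developing T cell, RAG recombinase joins 1 variable (V) and 1 joining (J) segment, in the β chain with a diversity segment between them, and splicing then links the joined exon to a constant (C) segment. A polyclonal population therefore holds many different rearranged mRNAs. The rearranged mRNA with a given V or J segment is summed over all cells that rearranged the segment and still transcribe it. FPKM does not separate this mRNA from other RNA over the segment. Outside the thymus the rearrangement of a mature T cell is fixed, while the transcription of its receptor genes is not. In bulk RNA, fewer cells with a segment and less RNA of it per cell cannot be told apart.

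The sorted cells carried the markers of their label. Foxp3 was at 75.4 to 136 FPKM, Il2ra at 620.1 to 758 and Ctla4 at 191 to 351, with Ikzf2 at 7.75 to 10.2. Cd4 was at 157 to 190 FPKM against 4.68 to 5.88 for Cd8b1 and at most 0.868 for Cd8a. Markers of other cells were lower: the NK genes Klrb1c and Ncr1 were listed at 0 in all 6 libraries, Cd79b led 5 B cell genes at 3.84 FPKM on average, and Cd68 led 4 myeloid genes at 3.59. The sum of 6 genes listed for γδ T cells, led by Trgv2, was 5.81 to 16.8 FPKM with vehicle and 7.49 to 15.7 with PGE2. The sum of 4 NK and NKT genes, led by Klrd1, was 0.741 to 2.86 FPKM with vehicle and 2.52 to 4.64 with PGE2, and that of the 2 CD8 genes was 5.27 to 5.59 with vehicle and 5.92 to 6.64 with PGE2. Of the markers named here, Ctla4 rose with PGE2 (log2 change 0.79 ± 0.08, adjusted p = 0.0076, limma). Klrd1 had a log2 change of 0.80 ± 0.34 and did not pass (adjusted p = 0.38, limma). It passed in the fit blocked by replicate number (adjusted p = 0.033, limma), and the other alternatives are not given for it. The part of cells with the NK, CD8 or γδ T genes in the segment levels was not tested. Sequencing depth, taken as the ratio of the deposited coverage to FPKM, was 3.996 to 5.446 gigabases, and replicate 3 was the shallowest library of each group, with 3.996 in vehicle and 4.542 in PGE2.

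The joining segments are the shortest members, 46 to 54 bases in Trbj and 29 to 72 in Traj, and their sequences are shown because the results differ most between these arrays. Capitals mark the core that encodes the conserved phenylalanine-glycine turn of a J segment, searched as TTTGGNNNNGG or TTCGGNNNNGG. All sequences are GENCODE M21 transcripts (mm10), 5′ to 3′. The most used β segments come first, Trbj2-7 (chr6:41543810-41543856, plus strand) and Trbj2-1 (chr6:41542754-41542803, plus strand), then Trbj1-2 (chr6:41534001-41534048, plus strand), which had the smallest p of any β segment, and then Trbj1-7 and Trbj2-6, both without the core.
Trbj2-7: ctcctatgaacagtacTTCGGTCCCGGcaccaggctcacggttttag
Trbj2-1: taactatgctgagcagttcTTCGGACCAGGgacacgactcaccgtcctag
Trbj1-2: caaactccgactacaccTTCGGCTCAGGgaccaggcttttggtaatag
Trbj1-7: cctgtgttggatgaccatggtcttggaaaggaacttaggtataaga
Trbj2-6: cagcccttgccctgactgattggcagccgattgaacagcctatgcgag
Of the α segments, Traj57 (chr14:54158505-54158569, plus strand) is the only member that passed the test of PGE2 against vehicle, Traj34 and Traj31 differed widely between libraries of 1 group, and Traj17 varied little.
Traj57: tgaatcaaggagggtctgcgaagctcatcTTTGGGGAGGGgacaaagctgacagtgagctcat
Traj34: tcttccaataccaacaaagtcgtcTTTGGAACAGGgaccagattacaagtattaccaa
Traj31: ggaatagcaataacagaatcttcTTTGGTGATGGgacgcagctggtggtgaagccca
Traj17: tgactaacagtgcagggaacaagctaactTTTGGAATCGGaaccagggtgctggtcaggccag

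The core was found in 43 of 60 Traj and 11 of 14 Trbj (73% of both), never on the other strand, and in 5 of 163 V segments (3.07%), which are several times longer. Among J segments with the core, 44 of 54 had a mean of at least 1 FPKM, the level required for testing, against 6 of 20 without it. The 3 Trbj without it, Trbj1-6, Trbj1-7 and Trbj2-6, had means of 34.5, 12.0 and 17.4 FPKM, and the latter pair were the lowest of the 14 Trbj. Trbj2-6 is annotated as a pseudogene. Its RNA was nevertheless steady, at 17.4, 17.1 and 16.3 FPKM with vehicle and 15.6, 18.7 and 19.0 with PGE2.

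The constant segments, which every productive chain carries, were the most abundant members. Trac, the single α constant segment, was at 508, 490.4 and 474 FPKM with vehicle and 454, 525 and 464 with PGE2. The groups overlapped throughout, and the log2 change on the FPKM + 1 scale used for all changes here was -0.03 ± 0.10 (SE, adjusted p = 0.93, limma). Trbc2 was at 715, 712 and 631 FPKM with vehicle and 734, 847 and 791 with PGE2. Trbc1 was at 410.3, 411 and 363 FPKM with vehicle and 459.6, 530.2 and 483 with PGE2. For both β constant segments every PGE2 library lay above every vehicle library, as for 7.81% of all tested names. The log2 change was 0.31 ± 0.10 for Trbc1 (adjusted p = 0.25, limma) and 0.20 ± 0.11 for Trbc2 (adjusted p = 0.49), so neither passed the threshold of 0.05. The sequences of Trbc1 and Trbc2 are 86.3% identical over 677 aligned bases, so reads from the shared stretches cannot always be told apart.

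Trbc1 and Trbc2 together were 2.21, 2.29 and 2.10 times Trac with vehicle and 2.63, 2.62 and 2.75 times with PGE2, means of 2.20 ± 0.10 and 2.67 ± 0.07 (SD, n = 3 each). Trbc2 made up 63.5%, 63.4% and 63.5% of Trbc with vehicle and 61.5%, 61.5% and 62.1% with PGE2. Neither the ratio nor the share overlapped between the groups, and no test was made on sums over members. The authors' assembly of transcripts also differed between the groups. Trbj1 with Trbc1 and Trbj2 with Trbc2 were 2 separate assembled loci in all 3 vehicle libraries, of 6447 to 7110 bases, and 1 joined locus of 15391 to 15607 bases in all 3 PGE2 libraries. Its part in the levels of Trbc1 and Trbc2 was not tested.

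**Figure D1:**
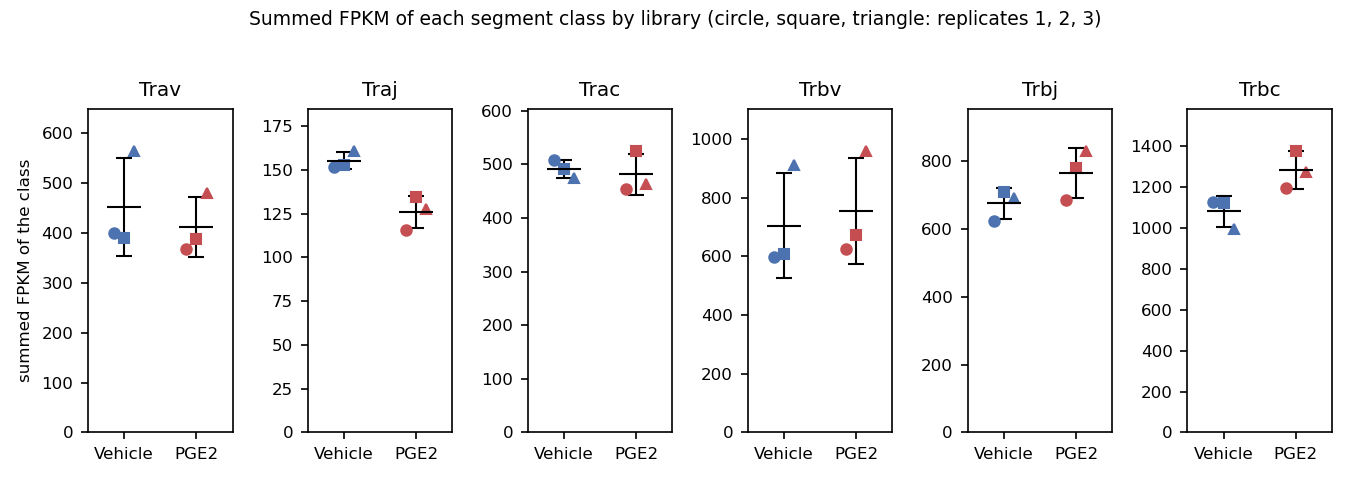
Summed FPKM of the 6 segment classes, each panel with its own axis from 0; points are libraries (circle, square and triangle for replicates 1, 2 and 3), bars are mean and SD of 3 libraries. The PGE2 points lie above the vehicle points for Trbc and below them for Traj, and replicate 3 is highest in both groups for Trav and Trbv.

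Usage of the β joining segments was uneven and steady. Trbj2-7 took 15.8% ± 0.56 of Trbj FPKM (SD over the 6 libraries), Trbj2-1 13.6% ± 1.36, Trbj2-5 10.7% ± 0.47 and Trbj2-3 8.37% ± 0.53. Trbj2-7 was at 102, 118 and 108 FPKM with vehicle and 108, 124 and 125 with PGE2. Its ranges overlapped between the groups. The 7 Trbj2 segments together held 60.7% to 65.7% of Trbj FPKM, close to the 61.5% to 63.5% that Trbc2, which lies downstream of them, held of Trbc. Over the 14 Trbj, the Pearson correlation of log2(FPKM + 1) between 2 libraries was 0.978 to 0.989 within a group and 0.976 to 0.987 between groups. These are descriptions over segments that share their libraries.

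With PGE2, 13 of 14 Trbj had a positive log2 change, against 43.3% of all tested names, and none passed the test. The median was 0.16 against -0.03 over all tested names. The 14 segments share the same 6 libraries. Over the alternatives run, 11 to 13 of the 14 were positive. Trbj1-2 was at 43.5, 48.3 and 45.8 FPKM with vehicle and 58.4, 54.8 and 59.4 with PGE2. The groups did not overlap, as in 7.81% of all tested names in this direction. The change of Trbj1-2 was 0.32 ± 0.08 (adjusted p = 0.14, limma). Its neighbour Trbj1-1, singled out after its values were seen, was at 42.0, 47.8 and 51.5 FPKM with vehicle and 56.2, 55.6 and 66.2 with PGE2. It too had separate groups (log2 change 0.33 ± 0.11, adjusted p = 0.26, limma). The Trbj1 sum was 227 to 262 FPKM with vehicle and 269 to 289.9 with PGE2, without overlap, while the Trbj2 sums overlapped.

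**Figure D2:**
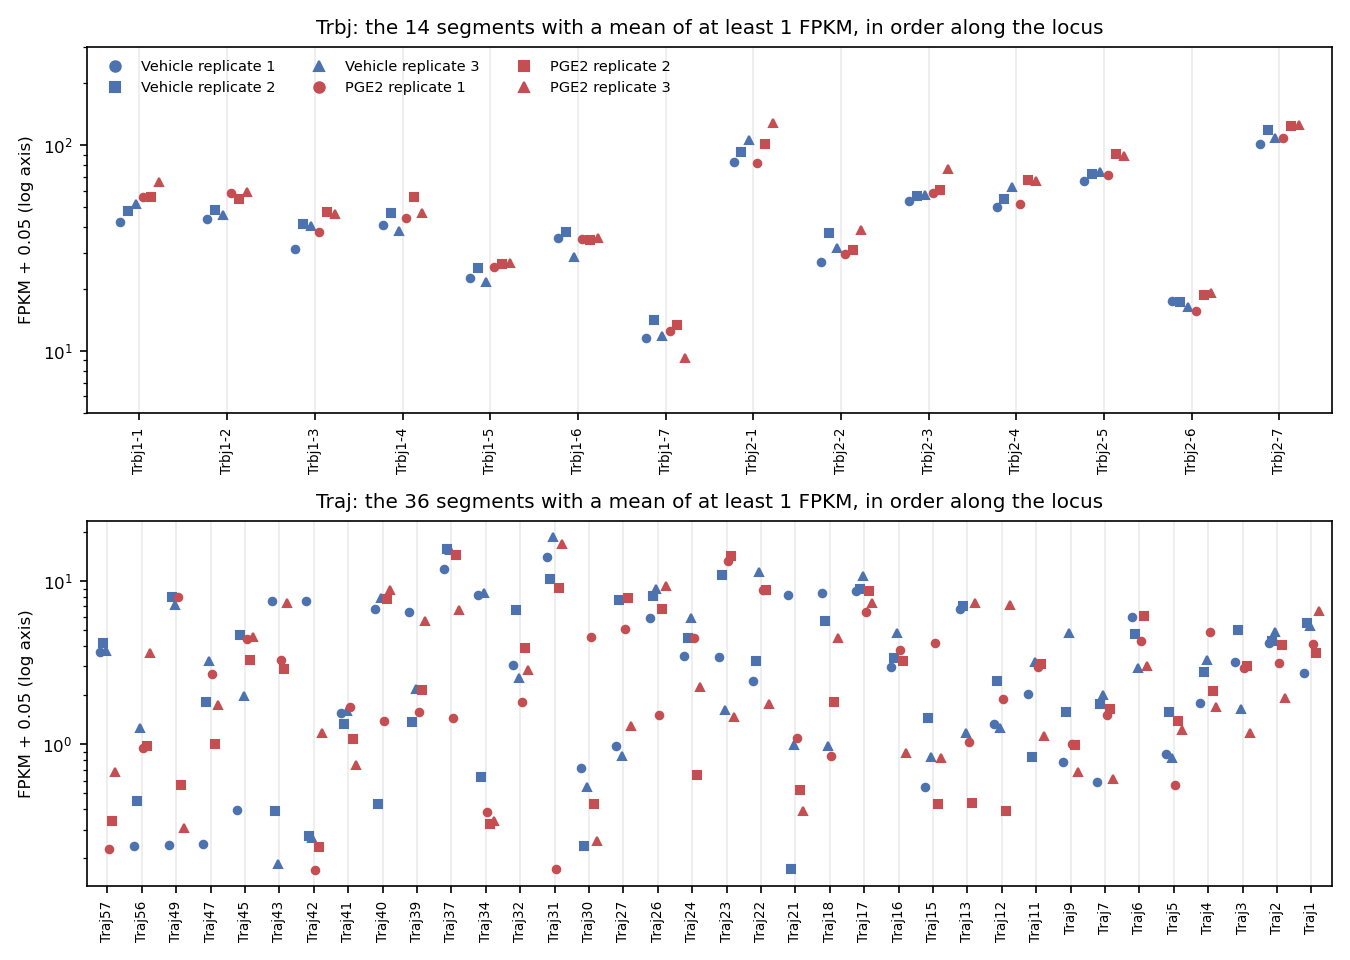
FPKM + 0.05 on a log axis of the tested Trbj (upper panel, 14 segments) and Traj (lower panel, 36 segments) in each of the 6 libraries, blue for vehicle and red for PGE2, with a marker shape per replicate. The 6 points of a Trbj stay close together, whereas most Traj spread over a factor of 5 or more.

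The α joining segments behaved otherwise. Traj holds 60 segments in a row, from 65.4 to 1.68 kb upstream of Trac. The spread of the 36 tested Traj between replicates was wide, with a median coefficient of variation within groups of 63.5%. It was 11.2% for Trbj, 25.6% for Trav, 26.8% for Trbv and 11.9% for all 12099 tested names. Names in the FPKM range of the tested Traj (1.03 to 11.4) had 14.4%. Trbj are shorter than Traj (median 49 bases against 61) and also higher (median of the mean FPKM 48.6 against 1.44 over all members). The parts of length and level in the spread were not tested. In 24 of 36 Traj the highest library was at least 5 times the lowest, and in 22 this held within a single group. No Trav, Trbv, Trbj or constant segment that was tested did so, and 3.13% of names in the same FPKM range did.

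Traj31, the Traj of highest mean, was at 14.0, 10.3 and 18.5 FPKM with vehicle and 0.122, 9.01 and 16.8 with PGE2. The first PGE2 library alone is near 0, and the other two lie within the vehicle range or just under it. Traj42, the least steady Traj with a coefficient of variation of 192%, was at 7.46, 0.223 and 0.215 FPKM with vehicle and 0.120, 0.183 and 1.12 with PGE2. Here 1 vehicle library is far above the other 5, and the third PGE2 library is next. Traj23 was at 3.39, 10.9 and 1.58 FPKM with vehicle and 13.3, 14.2 and 1.42 with PGE2, so low and high libraries occur in both groups. Traj17 was steady by comparison, at 8.70, 8.91 and 10.7 FPKM with vehicle and 6.38, 8.69 and 7.30 with PGE2.

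Detection of Traj changed from library to library as well. Between 24 and 30 of the 60 were at 1 FPKM or more in a library, 42 were so in at least 1 library, and 12 in all 6. Of the 21 that reached 5 FPKM somewhere, 12 were under 1 FPKM in another library. For 8 of the 21 both happened within vehicle and for 4 within PGE2. Over the 36 tested Traj, the correlation of log2(FPKM + 1) between 2 libraries of a group was -0.13 to 0.48, where Trav gave 0.907 to 0.948 and Trbv 0.985 to 0.995. The total over Traj was far steadier than its members: 152, 153 and 161 FPKM with vehicle and 116, 134 and 127 with PGE2. The groups did not overlap in this sum.

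The values behind these levels were small. The median tested Traj rested on 951 aligned bases per library (coverage times annotated length), against 11785 for Trbj. The same product was 10912 for Trav and 77973 for Trbv. It can overstate the aligned bases of V segments, whose annotated length can exceed the transcript (438 against 344 bases in Trav6-6). Mean coverage was nearly the same in Traj (median 15.5) as in Trav (18.5), which are longer and varied less. The parts of coverage and length in this difference were not tested. Of 126 values under 300 bases among joining segments with 1 transcript, 94.4% came to a whole number of bases within 0.05, against 58.5% of all 357 such values. The authors' assembly around Trac also differed between libraries. The assembled locus that holds Trac began at Trac itself in the first vehicle library, reached Traj23 and Traj31 in the other two, and reached Traj49, Traj37 and Traj58 in the 3 PGE2 libraries. Its part in the Traj values was not tested. How reads that run from a J segment into a V segment or into Trac were divided among them is not given in the sources used here.

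**Figure D3:**
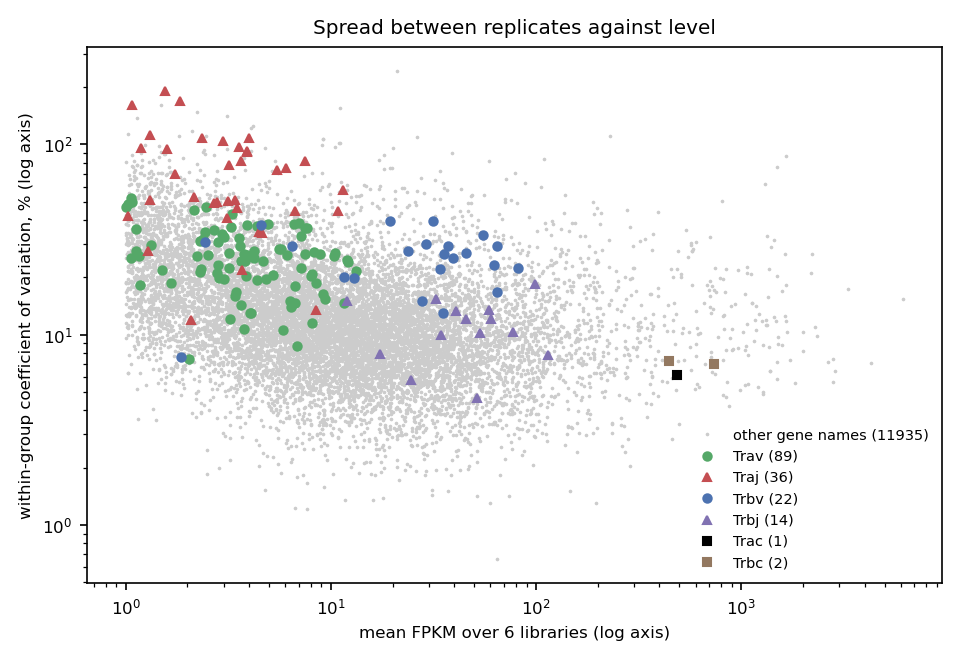
Coefficient of variation within groups (percent) against mean FPKM over 6 libraries, both axes log, for 164 tested segments in colour and 11935 other gene names in grey. Most Traj lie at the upper edge of the grey points of their level, with a median of 63.5%, while Trbj lie among them at 11.2%.

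Usage of Traj also differed by position. The 15 segments farthest from Trac (Traj61 to Traj47) held 7.76% of Traj FPKM, the next 15 (Traj46 to Traj32) 26.3%, the 15 after these (Traj31 to Traj17) 40.2% and the 15 nearest to Trac (Traj16 to Traj1) 25.8%. The block from Traj31 to Traj17 was the highest on average in both groups, with 39.3% in vehicle and 41.0% with PGE2, and ranged from 35.9% to 44.9% over the libraries. The block farthest from Trac ranged from 2.85% to 12.4%, the next from 14.5% to 35.7% and the nearest from 22.6% to 32.0%, so the shares of the far blocks were unsteady too. Only 4 of the first 15 reached a mean of 1 FPKM, against 13 of the last 15. Of the 9 Traj annotated as pseudogenes, Traj61, Traj60, Traj55, Traj54 and Traj51 lie in the farthest block. Traj36 lies in the next block, and Traj14, Traj8 and Traj1 in the nearest. The part of pseudogenes, and of the assembled locus around Trac, in the shares of the blocks was not tested.

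Across the 6 classes, 164 of 240 segments reached the mean of 1 FPKM and were tested together with the rest of the 12099 names. No segment was called higher with PGE2 and 1 was called lower, by limma at an adjusted p under 0.05, while 0.57% of all tested names were called higher and 0.24% lower. With the replicate number as a block the counts were again 0 and 1, while 1.77% of all tested names were higher and 1.46% lower. Before adjustment, p was under 0.05 for 4 segments with a positive change and 5 with a negative one, where 13% of all tested names passed in either direction. The 3 libraries of each group did not overlap for 15 segments, 8 higher (4.88%) and 7 lower (4.27%), against 7.81% and 12% of all tested names (19.8% in both directions together). The median log2 change was -0.05 over the 164 segments and -0.03 over all tested names. By class the medians were -0.10 for Trav, -0.16 for Traj, 0.12 for Trbv, 0.16 for Trbj and 0.26 for Trbc. The sign of the Trav median turned to 0.04 without vehicle replicate 3, and that of Trbv to -0.08 without PGE2 replicate 3. In the other alternatives run both kept their sign, and the medians of Traj, Trbj and Trbc kept theirs in all of them.

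The segment that fell was Traj57. It was at 3.64, 4.12 and 3.69 FPKM with vehicle and 0.178, 0.287 and 0.626 with PGE2. All 3 vehicle libraries lie close together, and the highest PGE2 library is well below the lowest of them. Its coefficient of variation within groups, 11.9%, was the lowest of the 36 tested Traj, and the same spread enters the test. The log2 change was -1.83 ± 0.15 (SE, adjusted p = 0.0032, limma), and the adjusted p was 0.0021 to 0.042 over the 16 alternatives in which it was tested. The size depends on the pseudocount: the log2 change was -3.19 with 0.1 FPKM and -0.72 with 5 FPKM in place of 1. In aligned bases these are 1192, 1330.1 and 944.5 with vehicle and 62, 95 and 182 with PGE2. Traj57 has 2 nested annotated transcripts, of 65 and 63 bases.

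In less steady Traj, large differences also occurred between libraries of 1 group. Traj34, with a log2 change of -1.98 ± 0.64 (adjusted p = 0.24, limma), was at 8.11, 0.578 and 8.39 FPKM with vehicle and 0.336, 0.275 and 0.288 with PGE2. The second vehicle library looks like the PGE2 libraries, and without it Traj34 was called (-2.83, adjusted p = 0.0029). With replicate 3 of both groups left out, 0.78% of all tested names were called higher and 0.36% lower. In that fit 4 Traj were called: Traj57, Traj13 and Traj18 lower and Traj22 higher. Traj13, at 6.73, 6.98 and 1.12 FPKM with vehicle and 0.976, 0.385 and 7.29 with PGE2, is 1 of these. The third library of each group lies near the values of the other group's remaining libraries.

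**Figure D4:**
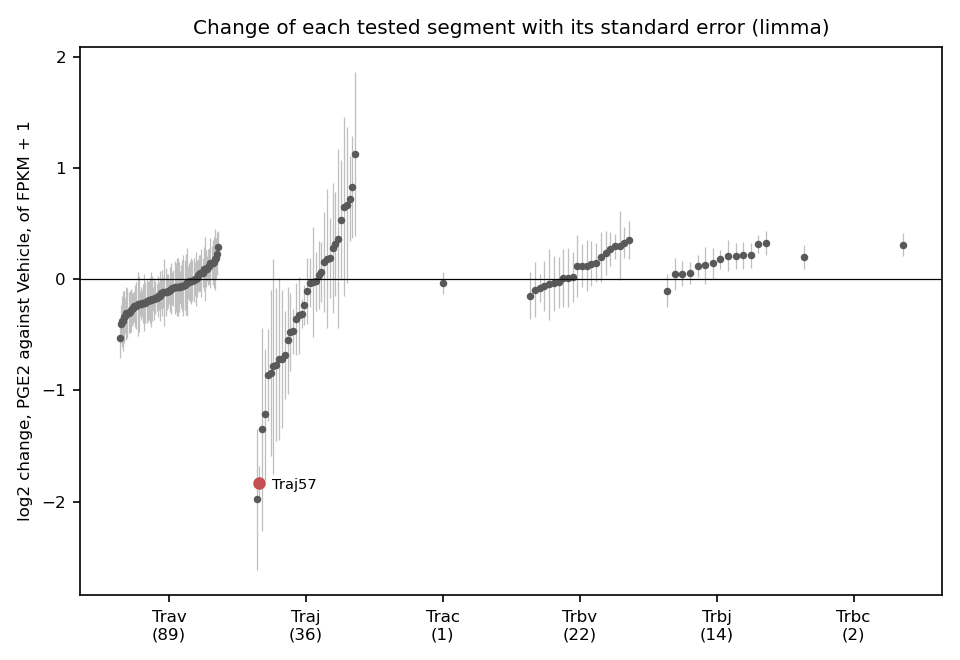
Log2 change of FPKM + 1, PGE2 against vehicle, with its standard error (limma) for each of the 164 tested segments, ordered within its class; the number tested is under each class name. Traj57, in red, is the only segment called, at -1.83, and the Traj changes reach from -1.98 to 1.13 while those of Trbj stay between -0.10 and 0.33.

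The β variable segments had a few leaders on the per-length FPKM scale. Trbv13-2 took 11.3% ± 0.60 of Trbv FPKM (SD over 6 libraries), Trbv19 8.91% ± 0.90, Trbv3 8.87% ± 1.10, Trbv1 8.62% ± 0.32, Trbv31 7.48% ± 0.58 and Trbv15 6.26% ± 0.34. The first 5 held 45.2%. Trbv31 lies downstream of Trbc2 on the opposite strand, apart from all other Trbv, and is rearranged by inversion. Trbv13-2 was at 72.6, 67.2 and 95.0 FPKM with vehicle and 73.0, 74.3 and 111 with PGE2. The groups overlapped, with a log2 change of 0.12 ± 0.19 (adjusted p = 0.87, limma). Its relative Trbv13-3, shown beside it after its values were seen, was lower, at 25.9, 25.5 and 38.3 FPKM with vehicle and 23.1, 22.4 and 40.0 with PGE2. Their transcripts differ at 32 of 340 bases, and the last 150 bases of each are shown with the differing bases in capitals.
Trbv13-2: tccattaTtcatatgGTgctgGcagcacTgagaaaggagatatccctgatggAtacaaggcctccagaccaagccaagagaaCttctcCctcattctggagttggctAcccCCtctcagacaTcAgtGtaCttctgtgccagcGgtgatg
Trbv13-3: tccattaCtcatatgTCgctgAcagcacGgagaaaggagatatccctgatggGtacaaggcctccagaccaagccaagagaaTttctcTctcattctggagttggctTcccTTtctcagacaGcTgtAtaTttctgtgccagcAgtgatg

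Replicate 3 had the highest V segment levels of both groups. The Trbv sum was 596, 608 and 909 FPKM with vehicle and 626, 674 and 959 with PGE2. The Trav sum was 400.2, 389 and 564 FPKM with vehicle and 368, 387 and 480.3 with PGE2. In each group the third library stands above the other two, while Trac and Trbc do not show this. Trbv was 0.53, 0.541 and 0.915 times Trbc with vehicle and 0.524, 0.489 and 0.753 times with PGE2. Replicate 3 was the highest library of both groups for 21 of 22 tested Trbv and 55 of 89 tested Trav, against 22.3% of all tested names. It was also the shallowest of each group, and the γ chain segment Trgv2 was higher in it, at 14.9 and 14.2 FPKM against 3.56 to 6.23 in the others. The part of these in the V levels was not tested. As a share of Trbv, Trbv13-2 was 11.2% ± 0.87 in vehicle and 11.4% ± 0.34 with PGE2, Trbv19 8.37% ± 0.97 and 9.44% ± 0.51, and Trbv3 9.18% ± 1.49 and 8.57% ± 0.73 (SD, n = 3 each).

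**Figure D5:**
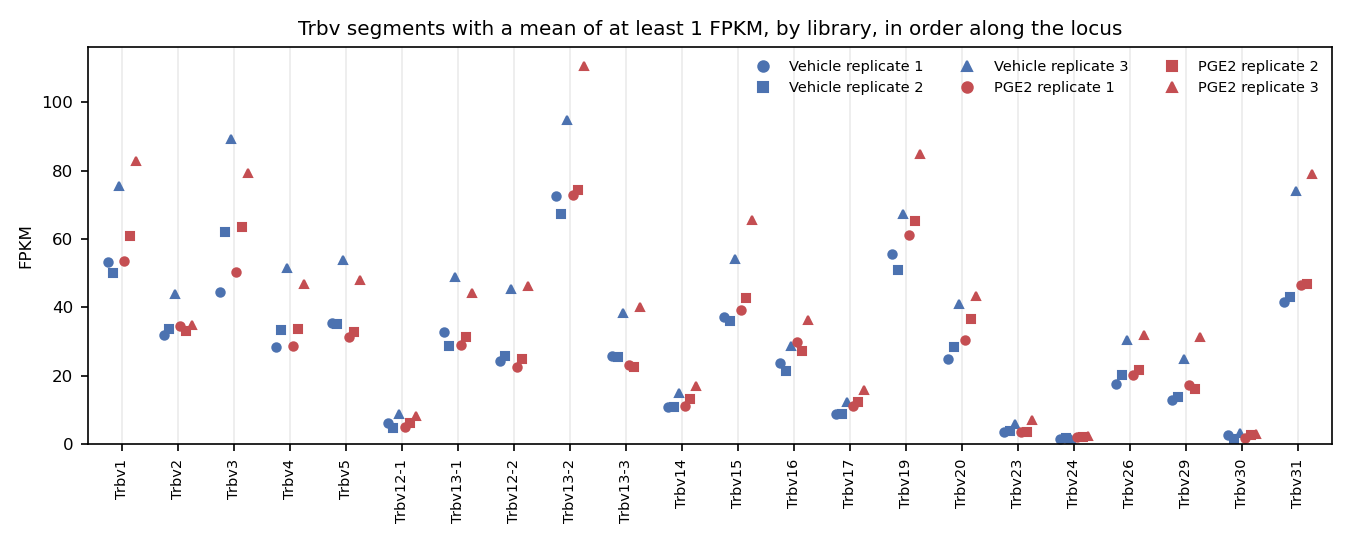
FPKM of the 22 tested Trbv in the 6 libraries, in order along the locus, blue for vehicle and red for PGE2, with a marker shape per replicate. Trbv13-2 is highest at 67.2 to 111 FPKM, and the triangles of replicate 3 lie above the other libraries of their group in 21 of 22 segments.

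The α variable segments shared their signal more evenly. Trav14-2 led with 3.08% ± 0.28 of Trav FPKM (SD over 6 libraries), and the first 5 together held 13.8%. By family, Trav6 (15 segments) took 17.6% ± 0.65, Trav14 14.9% ± 0.76, Trav7 13.0% ± 0.53 and Trav9 9.26% ± 1.03. Trav14-2 was at 12.5, 10.2 and 17.9 FPKM with vehicle and 12.3, 12.9 and 13.9 with PGE2. The groups overlapped, and its log2 change was -0.02 ± 0.18 (adjusted p = 0.98, limma). No Trav was called in either direction.

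Much of the Trav array of C57BL/6 is duplicated, and the copies carry d or n in their names. The d copies held 23.9% ± 0.52 of Trav FPKM, the n copies 20.0% ± 0.74 and the others 56.2% ± 0.96. In 17 pairs the transcripts are identical, so no read inside them can tell the members apart. Both members were tested in 12 pairs, and in 11 their mean FPKM differed by 1.24 times or less. Trav6d-6 (chr14:52821922-52822359, plus strand) and Trav6-6 (chr14:53516929-53517366, plus strand) are the highest such pair, at 10.5 and 10.4 FPKM on average, and share every base; the last 150 are shown.
Trav6-6: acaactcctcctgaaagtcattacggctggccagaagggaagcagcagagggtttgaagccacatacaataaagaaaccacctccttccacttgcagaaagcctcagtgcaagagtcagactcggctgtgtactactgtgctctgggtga
The exception, noted after its values were seen, was Trav4d-4 and Trav4n-4 with 4.36 and 7.12 FPKM. The level of a single member of such a pair is uncertain, since the counting may divide shared reads between them.

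Segments annotated as pseudogenes were mostly low. Of 43, 3 reached a mean of 1 FPKM: Trbj2-6, Traj1 at 4.60 FPKM and Trbv24 at 1.86. All 17 segments under 0.01 FPKM in every library are annotated as pseudogenes, 7 Trav, 3 Traj and 7 Trbv. Trbv24 was at 1.45, 1.78 and 1.48 FPKM with vehicle and 2.08, 2.14 and 2.25 with PGE2. Its groups did not overlap, as in 7.81% of all tested names in this direction (log2 change 0.30 ± 0.11, adjusted p = 0.32, limma).

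Segments of known invariant receptors were also measured. Trav11, which natural killer T cells join to Traj18, was at 3.21, 1.29 and 2.81 FPKM with vehicle and 2.31, 2.12 and 2.10 with PGE2. Trav1, which mucosal-associated invariant T cells join to Traj33, lay between 2.02 and 3.26 FPKM with vehicle and between 1.38 and 3.24 with PGE2. Traj33 was at most 0.243 FPKM and was not tested. Traj18 varied from 0.801 to 8.37 FPKM, and no call was made for any of them.

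Genes that work with the receptor were measured as well. The CD3 subunits Cd3e, Cd3d and Cd3g and the signalling chain Cd247 were at 126 to 226 FPKM. Of the list of 9 receptor partners and recombination genes, 6 were tested and none was called, against 0.81% of all tested names. The log2 changes of the 6 were 0.07 for Cd3e, 0.25 for Cd3d, 0.09 for Cd3g, 0.20 for Cd247, 0.12 for Cd4 and 0.35 for Dntt, which adds bases at the joints (adjusted p = 0.79, 0.50, 0.79, 0.36, 0.66 and 0.31, limma). Dntt was at 0.909, 0.872 and 0.887 FPKM with vehicle and 1.31, 1.70 and 1.24 with PGE2. Its groups did not overlap, as in 7.81% of all tested names in this direction. The recombinase genes were all but absent, with Rag1 at 0.051 FPKM or less and Rag2 listed at 0 in all 6 libraries. Ptcra, the partner of the β chain in immature thymocytes, was at 0.031 FPKM or less.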

How the data were processed

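RNA sequencing of 6 libraries, 3 vehicle and 3 PGE2 by their titles, was analysed from gene tables. Other cells that the design text mentions were not analysed here. Per the labels' protocols, a stranded mRNA kit was used. Trim Galore, HISAT2 and mm10 were used, per the submitters' processing notes. For their versions, the annotation and the quantifying program, nothing is given in the sources used here. Per the file headers, each gene has FPKM, which the authors scaled to length and library size. The deposited coverage signal is the mean read depth of a gene, and the deposited TPM, a score here, was not used. Tables hold assembled loci as well as annotated genes; only the latter entered levels and tests.

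FPKM was summed per gene name, and names with a mean of at least 1 FPKM were tested with limma 3.58.1 (R 4.3.3) on log2(FPKM + 1) with a mean-variance trend, two-sided, with Benjamini-Hochberg adjustment over 12099 names and a threshold of 0.05. The log2 scale understates changes of low segments. Usage is a segment's share of its class's FPKM. Depth was 3.996 to 5.446 gigabases. Read counts are unknown, so no counting interval is given. Members and lists were chosen with earlier results of these data known. Named segments were those called, the 3 smallest p otherwise, constant segments, the highest of each class, the steadiest and least steady of each, and segments of invariant chains, with Trbv31, Trbj1-7 and Trbj2-6; others are marked. Same-numbered libraries deviated together from their group means over all tested names (correlations of 0.23, 0.31 and 0.53 for replicates 1, 2 and 3), so the number was also used as a block. Vehicle 2 with PGE2 1 gave 0.27, and over the segments alone the same-numbered pairs gave -0.25, 0.04 and 0.02. The other alternatives changed the pseudocount, filter, scaling, summing, trend and libraries.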

Additional observations from a re-analysis of the deposited data

How the results depend on the processing

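Of 37 named segments tested, 35 stayed on their side of the threshold in every alternative run, and 20 never changed sign; no called value reversed. The exceptions were Traj34, called without vehicle replicate 2 (log2 change -2.83, adjusted p = 0.0029, limma), and Traj18, called without replicate 3 of both groups (-1.82, adjusted p = 0.047, limma), an alternative added after the data were seen. That alternative gave 1 segment called higher and 3 lower, in place of 0 and 1. Of all tested names it called 0.78% higher and 0.36% lower, against 0.57% and 0.24% in the main fit. Leaving out each library in turn gave 0 segments higher throughout and 1 to 2 lower. Those fits called 0.13% to 0.44% of all tested names higher and 0.03% to 0.14% lower. With a mean of at least 5 FPKM required, 0 were lower, because Traj57 was then not tested. By coverage times annotated length in place of FPKM, Trbv13-2 was 8.94% of Trbv and Trbj2-7 15.1% of Trbj. On this product Trbv19, annotated over 674 bases against 437, lay above Trbv13-2 in all 6 libraries (192091 against 162364 in vehicle replicate 1). The annotated length of a V segment can exceed its transcript, as in Trbv13-2 with 340 transcript bases. The product is then not a count of aligned bases, and it does not show which Trbv had the most reads. The log2 change of Traj57 was -3.19 with a pseudocount of 0.1 FPKM and -0.72 with 5 FPKM, and it was called with both. With the replicate number as a block, the calls among segments were again 0 higher and 1 lower (Traj57, adjusted p = 0.0041, limma). By the same adjusted threshold 1.77% of all tested names were called higher and 1.46% lower. Before adjustment, p was under 0.05 for 15 of 164 segments with a positive and 19 with a negative change, against 4 and 5 without the block. Over all 12099 tested names, unadjusted p was under 0.05 for 2378 with the block and 1577 without it, in either direction. The block changed no segment's call. Of the V and J classes, tested Traj had the lowest coverage times annotated length (median 951 bases per library), and no value has a counting error of its own. The part of depth in their spread was not tested.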

Other observations

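Segments of the γ and δ chains, which form the receptor of another T cell lineage, were measured at low levels. Whether their RNA came from cells of that lineage was not tested. Trgj2 was the highest of 16 listed, at 6.46, 4.66 and 15.7 FPKM with vehicle and 9.33, 6.85 and 16.4 with PGE2. Trgv2 was at 4.20, 3.56 and 14.9 FPKM with vehicle and 6.23, 5.22 and 14.2 with PGE2. Trgj4 was at 6.62, 6.03 and 12.2 FPKM with vehicle and 5.99, 6.95 and 10.1 with PGE2. In these segments the third library was the highest of its group, as for most tested V segments of the α and β chains. Other γ segments differed. Trgj1 was at 1.38, 1.46 and 1.13 FPKM with vehicle and 1.86, 2.96 and 2.69 with PGE2. Trgj3 was at 1.99, 0.638 and 1.38 FPKM with vehicle and 1.59, 1.29 and 1.32 with PGE2. Trdc, the δ constant segment, showed no such pattern, at 1.47, 1.30 and 1.10 FPKM with vehicle and 1.04, 1.32 and 1.23 with PGE2. The log2 change with PGE2 was 0.29 ± 0.52 for Trgv2 (adjusted p = 0.89, limma) and -0.06 ± 0.13 for Trdc (adjusted p = 0.90, limma). These genes were picked for display after their values were seen, apart from Trgv2 and Trdc.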
